A study of Homo sapiens with 34 samples.

Results

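Mitosis genes were followed in human osteosarcoma cells in which the pentose phosphate pathway (PPP) was inhibited. The set held 38 genes that encode the kinases, cyclins, checkpoint proteins, kinetochore proteins and spindle motors of mitosis, chosen by name. All 38 were matched to a locus among the 28690 loci of the expression tables, and all 38 had a mean of at least 1 FPKM over the libraries, as did 13979 loci in all. FPKM are fragments mapped per kilobase of transcript, scaled to the size of the library, a level corrected for gene length and library depth. The locus of BUB1B was a merged one that also carried PAK6 and a read-through gene.

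The cells were the U2OS line stably expressing a Bmal1:luc luciferase reporter, which both conditions carried. They were synchronised with a dexamethasone shock and kept in 5 mM 6-aminonicotinamide (6AN), or in a matched amount of DMSO as control. 6AN is converted in cells to an analogue of NADP+ that lowers NADPH production by the PPP. RNA depleted of ribosomal RNA was sequenced at 12 time points from 0 to 44 hr, every 4 hr, with 1 library per condition and time point, 24 libraries in all. Times are those of the sample labels, which do not say how long 6AN had been present at 0 hr. BMAL1 and CLOCK binding was mapped by ChIP-seq after 24 hr, with 1 library per antibody and condition. No time point had a replicate library, RNA was extracted in triplicate by the study's methods, and whether the extracts were pooled was not stated. U2OS is a single tumour line that divides in culture, so the values describe these cultures only.

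Of 9 genes of the osteoblast lineage, 6 had a mean of at least 1 FPKM. RUNX2, the master regulator of that lineage, lay between 11.6 and 17.6 FPKM over the 24 libraries, while SP7, COL1A2 and IBSP were at or near 0. Other genes of that list differed between the conditions. COL1A1 ran from 84.5 to 170 FPKM in control and from 13.3 to 73.8 in 6AN, SPARC from 290 to 368 and from 87.2 to 185, and ALPL from 4.83 to 9.59 and from 2.79 to 4.99. SPP1 went the other way, from 0.969 to 3.94 FPKM in control and from 2.18 to 7.4 in 6AN. The ranges of BGLAP overlapped, at 19.8 to 26.9 FPKM in control and 15.7 to 32.5 in 6AN. Mean log2 ratios of the genes measured in that list ran from -2.02 to 0.66. The lowest was below that of any mitotic gene described here, and its part in their values was not tested. None of 10 markers of blood, epithelial, endothelial, liver, muscle and neural crest cells had a mean of 1 FPKM, EPCAM being the highest at 0.879. Depth relative to the other libraries of its condition ran from 0.581 to 1.31 in control and from 0.696 to 1.55 in 6AN.

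Entry into mitosis is driven by CDK1 bound to cyclin B, which CDC25 phosphatases activate and which Aurora and Polo-like kinases reinforce. The spindle checkpoint then holds back the anaphase-promoting complex (APC/C) and its activator CDC20 until every kinetochore is attached. In dividing cells the mRNAs of these proteins are made late in the cell cycle. Their promoters are held silent by the DREAM complex and are switched on by B-MYB, the MuvB core and FOXM1 through a short element called CHR, often with CCAAT boxes that bind NF-Y a short way upstream.

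Promoter sequences are shown first, since many of these genes have CHR or CCAAT letters in common outside the expression tables. RefSeq promoter windows of 250 bases before to 50 after a transcription start (build GRCh38.p14) were found for 31 of the 38 genes, in 41 windows. AURKA, TTK, BUB3, UBE2C, BIRC5, TPX2 and FOXM1 were not in that table. The windows were searched on both strands for the CHR letters TTTGAA or TTCGAA, for CCAAT, and for the canonical E-box CACGTG bound by BMAL1 and CLOCK. The 9 windows below run 5′ to 3′ from 200 bases before to 30 bases after the start, with matches in capitals, reverse-strand matches included as TTCAAA or ATTGG. They show the cyclin B genes, PLK1 and CDC20, the genes with the lowest and the highest 6AN to control ratio (MAD2L1 and CDC25B), and 3 genes with a BMAL1 peak over or just before the start (BUB1, NUF2 and ANLN).
CCNB2, chr15:59104946-59105175, plus strand: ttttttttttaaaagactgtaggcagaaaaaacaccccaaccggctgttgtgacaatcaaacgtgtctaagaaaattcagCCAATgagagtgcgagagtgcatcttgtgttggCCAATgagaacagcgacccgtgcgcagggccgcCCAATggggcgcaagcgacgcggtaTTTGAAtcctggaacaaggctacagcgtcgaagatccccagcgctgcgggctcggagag
CDC20, chr1:43358781-43359010, plus strand: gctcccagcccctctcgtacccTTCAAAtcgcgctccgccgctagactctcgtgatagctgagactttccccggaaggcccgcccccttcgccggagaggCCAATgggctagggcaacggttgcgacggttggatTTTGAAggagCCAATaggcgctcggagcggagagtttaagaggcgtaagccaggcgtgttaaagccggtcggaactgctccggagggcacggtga
PLK1, chr16:23678689-23678918, plus strand: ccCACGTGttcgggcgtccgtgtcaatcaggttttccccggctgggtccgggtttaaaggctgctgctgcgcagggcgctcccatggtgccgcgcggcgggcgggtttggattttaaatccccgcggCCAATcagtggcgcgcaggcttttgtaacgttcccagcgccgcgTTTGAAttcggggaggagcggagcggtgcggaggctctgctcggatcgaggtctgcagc
CCNB1, chr5:69166950-69167179, plus strand: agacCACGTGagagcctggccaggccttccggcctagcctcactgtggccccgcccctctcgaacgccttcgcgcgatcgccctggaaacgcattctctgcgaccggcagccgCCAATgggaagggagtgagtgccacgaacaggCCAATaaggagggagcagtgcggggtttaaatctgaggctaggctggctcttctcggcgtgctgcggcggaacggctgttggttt
MAD2L1, chr4:120066819-120067048, minus strand: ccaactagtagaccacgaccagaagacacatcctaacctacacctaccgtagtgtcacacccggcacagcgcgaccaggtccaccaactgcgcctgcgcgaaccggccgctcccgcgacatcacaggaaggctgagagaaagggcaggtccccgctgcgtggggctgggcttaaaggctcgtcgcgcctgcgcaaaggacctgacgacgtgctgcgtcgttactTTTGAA
CDC25B, chr20:3796110-3796339, plus strand: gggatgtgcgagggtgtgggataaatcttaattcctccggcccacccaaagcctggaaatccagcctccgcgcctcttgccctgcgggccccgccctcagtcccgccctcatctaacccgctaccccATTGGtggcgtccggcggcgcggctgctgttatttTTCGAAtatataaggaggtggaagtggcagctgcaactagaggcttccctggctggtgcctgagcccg
BUB1, chr2:110678034-110678263, minus strand: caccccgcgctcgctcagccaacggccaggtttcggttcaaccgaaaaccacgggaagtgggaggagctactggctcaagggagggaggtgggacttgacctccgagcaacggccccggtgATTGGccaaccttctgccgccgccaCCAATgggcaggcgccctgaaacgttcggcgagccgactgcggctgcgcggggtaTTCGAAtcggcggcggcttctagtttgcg
NUF2, chr1:163321754-163321983, plus strand: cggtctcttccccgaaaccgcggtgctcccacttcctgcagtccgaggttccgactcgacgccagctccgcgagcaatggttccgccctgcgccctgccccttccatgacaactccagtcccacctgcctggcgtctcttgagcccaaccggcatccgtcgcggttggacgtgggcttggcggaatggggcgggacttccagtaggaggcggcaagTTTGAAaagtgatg
ANLN, chr7:36389662-36389891, plus strand: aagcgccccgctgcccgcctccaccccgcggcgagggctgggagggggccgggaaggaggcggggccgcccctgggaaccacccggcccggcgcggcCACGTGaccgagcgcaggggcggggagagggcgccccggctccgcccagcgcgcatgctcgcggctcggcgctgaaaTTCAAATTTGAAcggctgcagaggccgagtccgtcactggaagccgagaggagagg
In CCNB2, 3 CCAAT boxes stand ahead of a single CHR match in the part printed. CDC20 departs from that order, with 1 CHR match between its 2 CCAAT boxes and 1 far upstream of both. PLK1 has 1 CCAAT box and 1 CHR match near the start and an E-box far upstream. CCNB1 has the E-box and 2 CCAAT boxes and no CHR match. In MAD2L1 the CHR match lies downstream of the start. CDC25B has 4 RefSeq starts, and the window printed is the only one of the 4 with a CHR match. No E-box is present in the windows of BUB1 and NUF2, whereas ANLN has one 103 bases before the start, within its BMAL1 peak, and a pair of CHR matches close to the start.

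CHR letters were present in 22 of the 31 genes with a window (71.0%), against 15.4% of 10106 measured genes with a window and 16.4% of all 35116 windows in the table. CCAAT was present in 24 of 31 (77.4%), against 42.9% of measured genes and 34.6% of all windows. Both were present in 18 genes, 1 of them in 10, and neither in 3. Of 35 CHR positions, counted window by window, 26 lay between 60 bases before and 50 after the start. That share was not counted over all windows, so no preference for these positions is read from it. A site shared by overlapping windows of a gene was counted in each of them. The E-box was present in 5 of 31 genes, ANLN, CCNB1, CENPE, CENPF and PLK1 (16.1%, against 12.5% of measured genes and 7.26% of all windows). These are matches of letters in a fixed window and do not show that a factor bound there. The order of CHR and CCAAT matches and the spacing between them were not counted.

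All 38 genes had a lower mean level in 6AN than in control over the second 24 hr of the series, and 37 of them had a lower mean over the whole series. At every time point of the second 24 hr 37 genes were lower, against 28.8% of all loci. The control and 6AN tables were normalised separately and hold 1 library per time point, so the conditions were set side by side at matched times without a test. The log2 ratio of FPKM + 1, 6AN to control, averaged over the 12 time points, had a median of -0.83 over the 38 genes and ran from -1.22 in MAD2L1 to 0.01 in CDC25B. Over all loci that median was -0.04. The level was lower in 6AN at all 12 time points for 27 of 38 genes (71.05%), against 20.4% of all loci, and higher at all 12 for 0, against 13% of all loci. In the remaining 11 genes it was lower at 11 time points in 9, at 8 in NEK2 and at 6 in CDC25B. Ranges of the conditions were separate in 3 genes, MAD2L1, NDC80 and KIF11, against 10.3% of all loci, with the 6AN values below, and 0 had them above, against 5.89%. In the other 35 genes some 6AN values lay within the control range. In RNA from whole cultures, fewer cells in mitosis and less of each mRNA per cell cannot be told apart.

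The ratio was not constant over the series. The median over the 38 genes was -0.56 at 0 hr, -0.27 at 8 hr and -0.34 at 16 hr, then -0.80 at 20 hr, -1.16 at 24 hr and -1.28 at 44 hr. Over all loci the median stayed between -0.06 and -0.02 at every time point. Every one of the 38 genes had a lower mean ratio in the second 24 hr than in the first, against 7060 of 13979 loci. The medians of the 38 genes were -1.23 in the second 24 hr and -0.42 in the first. Individual ratios in the second 24 hr ran from -1.63 in MAD2L1 to -0.17 in CDC25B.

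**Figure D1:**
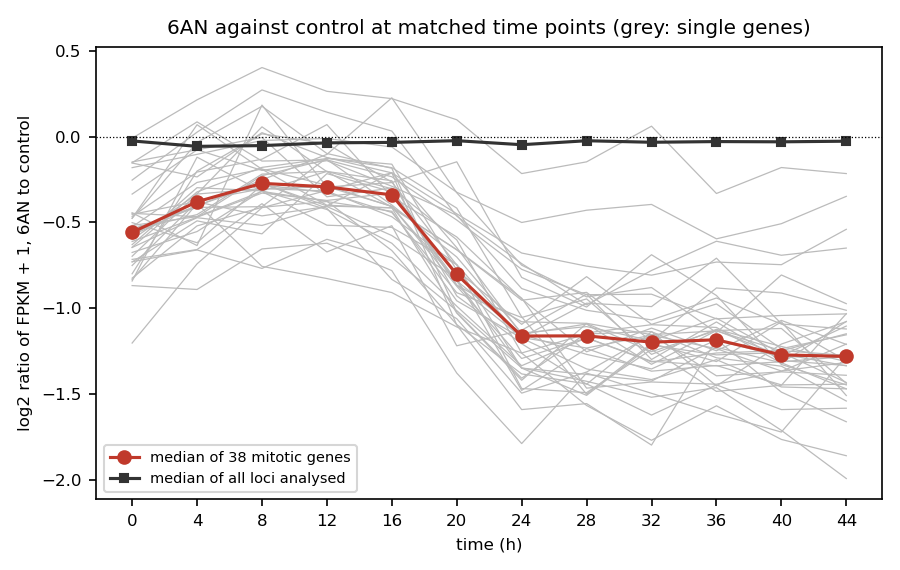
Log2 ratio of FPKM + 1, 6AN to control, at each of the 12 time points (x axis, hr), with 1 grey line per mitotic gene, the median of the 38 genes in red and the median of all 13979 loci in black. The red median lies between -0.56 and -0.27 up to 16 hr and between -1.28 and -1.16 from 24 hr on, and the black median stays between -0.06 and -0.02.

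Within each condition the time course was tested in its own table. A line was fitted to log2(FPKM + 1) over the 12 time points with limma, and p-values were adjusted by Benjamini-Hochberg over the 13979 loci. Libraries of a time series are not replicates, so these p-values measure the scatter around the fitted line. In 6AN all 38 genes fell over time at an adjusted p of at most 0.05, against 13.1% of all loci falling and 12.3% rising. The slopes ran from -0.99 log2 units per 24 hr in PLK1 to -0.26 in BUB3, with a median of -0.67, and the smallest adjusted p was 5.60e-06 in CENPF. In control, limma called 0 of 38 falling and 0 rising, against 3.13% of all loci in each direction. An unadjusted p under 0.05 was found in 2 of 38 genes, against 2899 of 13979 loci. Control slopes had a median of -0.06 and ran from -0.28 in CDC20 to 0.13 in MAD2L1. The difference between the slopes of the conditions was not tested, since the tables were normalised separately.

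**Figure D2:**
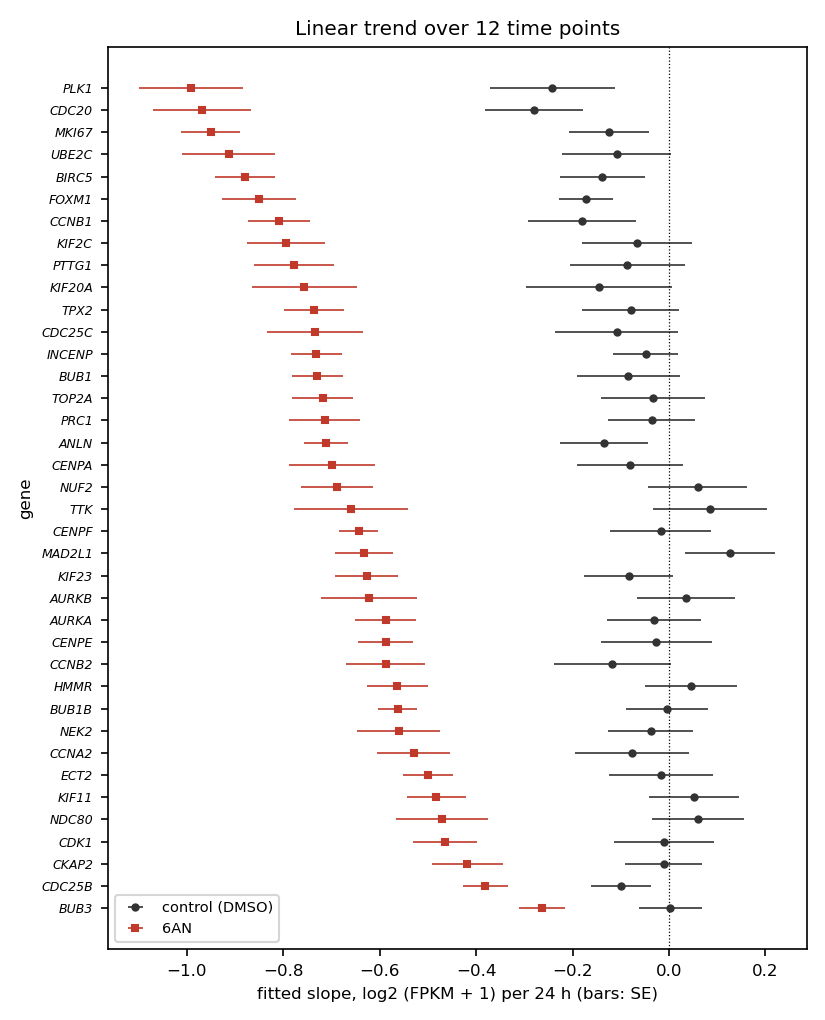
Fitted slope of log2(FPKM + 1) per 24 hr (x axis) for each of the 38 genes (y axis, ordered by the 6AN slope), control as black circles and 6AN as red squares, with bars of 1 SE from the fit. All 6AN slopes lie between -0.99 and -0.26 and control slopes between -0.28 and 0.13.

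The courses were not straight lines. In control 34 of 38 genes were highest at 0 hr, against 17.9% of all loci, and 37 were lowest at 8, 12 or 16 hr, against 22.2%. Only 1, CDC25B, was lowest in the second 24 hr of control, against 43% of all loci. The control mean of 24 to 44 hr was above that of 8 to 16 hr in 36 of 38 genes, by a median of 0.246 log2 units, against 50.7% of all loci. In 6AN 35 of 38 genes were also highest at 0 hr, against 21.3% of all loci, but 38 were lowest in the second 24 hr, against 46.2%, and 0 returned above the 8 to 16 hr mean, against 49.9%. The median change across that interval in 6AN was -0.654 log2 units. From 0 hr the median change in control was -0.66 at 8 hr, -0.36 at 24 hr and -0.49 at 44 hr. In 6AN it was -0.40, -0.98 and -1.21 at the same times. These time windows were set after the courses had been seen. Fitted within the first 24 hr alone, 1 of 38 genes was called falling in 6AN, TOP2A, and within the second 24 hr 0 were. At an unadjusted p under 0.05 there were 36 and 13 genes, so the trend calls rest on the whole series. Control also declined within each 24 hr, with 0 genes called and 7 at an unadjusted p under 0.05 in each. Slopes in the first 24 hr were negative in all 38 genes in both conditions, with medians of -0.54 in control and -0.77 in 6AN. In the second 24 hr they were negative in 33 genes in control and 34 in 6AN, with medians of -0.16 and -0.25. Shares of all loci are not given for the fits within each 24 hr, so their counts are not read as particular to these genes.

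**Figure D3:**
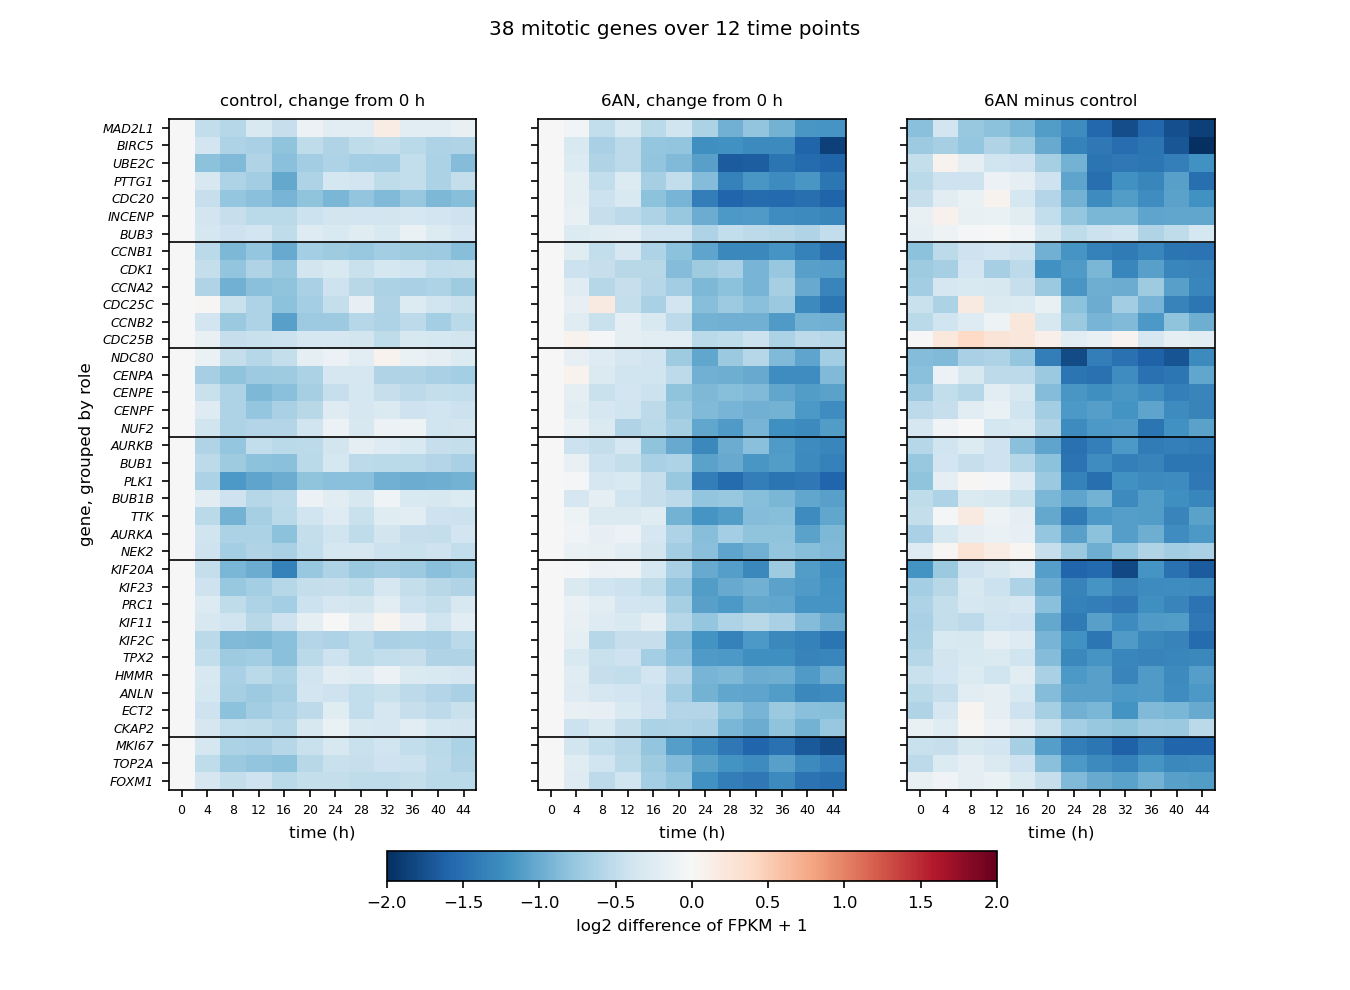
Log2 change of FPKM + 1 from 0 hr in control (left) and in 6AN (middle), and the log2 difference of 6AN from control (right), for the 38 genes (rows, grouped by role) at 12 time points (columns, hr). In control 37 genes are lowest at 8 to 16 hr, and in 6AN all 38 are lowest at 24 hr or later.

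Cyclins, CDK1 and CDC25 phosphatases came first. CCNB1, the cyclin B that activates CDK1 (chr5:69167010-69178243, hg38), had a lowest, median and highest level of 85.0, 104 and 171 FPKM in control and of 33.3, 49.96 and 96.3 FPKM in 6AN. The control maximum was at 0 hr, and the 6AN values from 28 hr on were at most 41.9 FPKM. In the second 24 hr CCNB1 averaged 102 ± 4.28 FPKM in control and 39.2 ± 4.22 in 6AN (SD over 6 time points), a fold of 0.384. Its slope in 6AN was -0.81 ± 0.06 log2 units per 24 hr (SE; limma adjusted p = 2.09e-05) and in control -0.18 ± 0.11 (limma adjusted p = 0.408).

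CDK1 itself had a lowest, median and highest of 46.6, 58.5 and 81.1 FPKM in control and 22.3, 30.2 and 49.0 FPKM in 6AN. Its mean log2 ratio was -0.94 ± 0.33 (SD over 12 time points), and its ranges overlapped only through the 0 hr library of 6AN. CCNA2, the cyclin of S phase and early mitosis, lay at 18.5, 23.3 and 36.9 FPKM in control against 8.40, 13.6 and 22.4 FPKM in 6AN. CCNB2, the second cyclin B, had a mean log2 ratio of -0.57 and was lower in 6AN at 11 of 12 time points, 16 hr being the exception. CDC25C, the phosphatase that activates CDK1 at mitotic entry, was the least abundant of the 38, with medians of 6.31 FPKM in control and 3.57 FPKM in 6AN.

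CDC25B, the CDC25 family member that starts CDK1 activation at the centrosome, stood apart. Its control levels were 42.4, 47.0 and 60.4 FPKM and its 6AN levels 38.2, 47.7 and 63.0 FPKM (lowest, median, highest), so that the ranges overlapped almost fully. The log2 ratio was positive from 4 to 20 hr, reaching 0.40 at 8 hr, and was negative at 5 of the 6 later time points. It nevertheless fell over time within 6AN, by 0.38 ± 0.05 log2 units per 24 hr (SE; limma adjusted p = 2.00e-04). All 6 genes of this group fell in 6AN and 0 in control, and 3 of 6 were lower in 6AN at every time point.

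**Figure D4:**
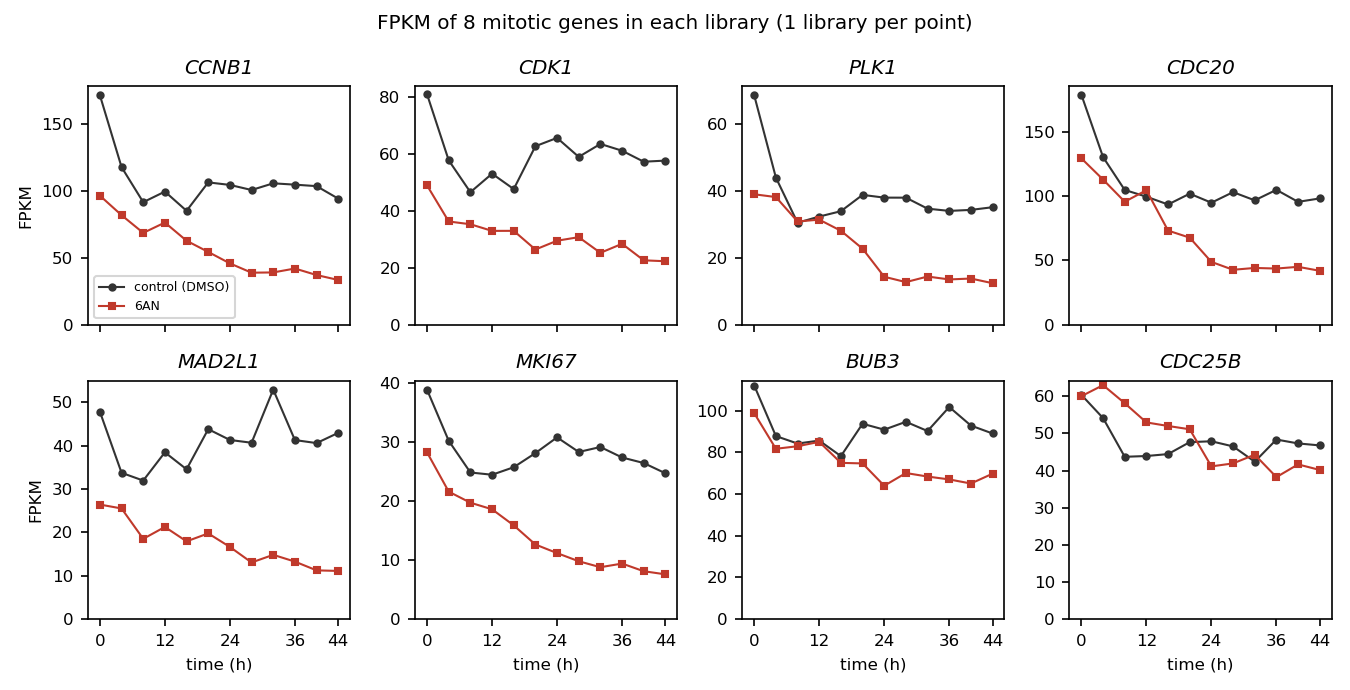
FPKM (y axis, from 0) of 8 mitotic genes at 12 time points (x axis, hr), control as black circles and 6AN as red squares, 1 library per point and so no error bars. CCNB1, CDK1 and MAD2L1 lie lower in 6AN at all 12 time points, BUB3 by the smallest margin, and CDC25B crosses its control course after 20 hr.

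The 7 mitotic kinases and kinase-like proteins had a median log2 ratio of -0.83, all 7 fell in 6AN and 0 were called in control. PLK1, the Polo-like kinase that acts from entry to cytokinesis, had the steepest 6AN slope of the 38, -0.99 ± 0.11 log2 units per 24 hr (SE; limma adjusted p = 9.92e-05). Its levels were 30.4, 34.9 and 68.5 FPKM in control and 12.4, 18.5 and 39.0 FPKM in 6AN. At 8 hr PLK1 stood at 30.4 FPKM in control and 30.8 in 6AN, and by 28 hr the values were 37.95 and 12.7. AURKA, the Aurora kinase of the spindle poles, lay at 22.5, 28.7 and 40.3 FPKM in control and 11.6, 15.9 and 25.4 FPKM in 6AN, lower at all 12 time points. AURKB, the Aurora kinase of the centromere, and BUB1, the checkpoint kinase, both had a mean log2 ratio of -0.98. TTK, which starts checkpoint signalling, had one of -0.73 and BUB1B one of -0.83. NEK2, a kinase of centrosome separation, was among the 3 highest of the 38 at -0.39 ± 0.42 (SD), with 6AN above control at 4 time points and levels of 27.5, 32.6 and 44.5 FPKM in control against 17.3, 21.8 and 37.2 FPKM in 6AN.

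The 7 regulators of the checkpoint, the chromosomal passenger complex and the APC/C had a median log2 ratio of -0.81. MAD2L1, the checkpoint protein that sequesters CDC20, was the lowest of the 38 at -1.22 ± 0.48 (SD). Its control levels of 31.9, 41.0 and 52.9 FPKM all lay above its 6AN levels of 11.1, 17.3 and 26.4 FPKM. BIRC5 (survivin), a chromosomal passenger protein, was the third lowest at -1.16 ± 0.47, with 55.7, 65.6 and 97.8 FPKM in control and 15.4, 29.2 and 58.6 FPKM in 6AN. Its overlap with control came from the 0 hr library, the only 6AN value above 55.7 FPKM.

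BUB3, a WD-repeat partner of BUB1 that cells also use outside mitosis, was the second highest of the 38. It was lower in 6AN at all 12 time points, but by a mean log2 ratio of only -0.29 ± 0.21, with 78.2, 90.6 and 112 FPKM in control and 64.0, 72.4 and 98.8 FPKM in 6AN. CDC20, the APC/C activator, lay at 93.5, 101 and 179 FPKM in control and at 41.9, 58.2 and 129 FPKM in 6AN, and had the lowest control slope of the 38, -0.28 ± 0.10 (SE; limma adjusted p = 0.140). UBE2C, the ubiquitin-conjugating enzyme of the APC/C, was the most abundant in control with a median of 129 FPKM against 75.1 FPKM in 6AN. PTTG1 (securin), the separase inhibitor that the APC/C destroys, had 83.2, 120 and 169 FPKM in control and 42.0, 68.4 and 116 FPKM in 6AN. INCENP, the scaffold of the passenger complex, had a ratio of -0.57. All 7 fell in 6AN and 0 in control.

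The 5 kinetochore and centromere genes were lower in 6AN at all 12 time points in the values as deposited, and all 5 fell over time in 6AN. NDC80, the microtubule-binding subunit of the outer kinetochore, was the second lowest of the 38 at -1.21 ± 0.42 (SD). Its control levels of 34.9, 45.5 and 54.9 FPKM did not overlap its 6AN levels of 13.1, 18.0 and 28.3 FPKM. NUF2, its partner in the same complex, had a smaller difference at -0.75. At its closest time point, 8 hr, its ratio was 0.00 to 2 decimals, when the median of all loci was -0.05. CENPF, a large kinetochore protein that accumulates in G2, lay at 29.1, 37.9 and 50.5 FPKM in control and 14.2, 19.5 and 35.0 FPKM in 6AN, with the smallest trend p of the 38 in 6AN (slope -0.64 ± 0.04; limma adjusted p = 5.60e-06). CENPA, the centromeric histone H3 variant, and CENPE, the kinetochore motor, had ratios of -0.94 and -0.89.

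Of 10 spindle, midzone and cytokinesis genes, 8 were lower in 6AN at all 12 time points and all 10 fell in 6AN. KIF20A, a kinesin of the central spindle, was the lowest of this group at -1.10 ± 0.56 (SD). KIF11 (Eg5), the kinesin that separates the spindle poles, had control levels of 18.2, 23.5 and 28.2 FPKM, all above its 6AN levels of 8.02, 11.2 and 17.0 FPKM. KIF23 and PRC1, which build the midzone, had ratios of -0.93 each. KIF2C, a microtubule-depolymerising kinesin, and TPX2, the activator of AURKA, had ratios of -0.88 each. HMMR, a spindle assembly protein, and ANLN (anillin), the scaffold of the cleavage furrow, had ratios of -0.79 each. ANLN had the second smallest trend p in 6AN, with a slope of -0.71 ± 0.05 (SE; limma adjusted p = 5.87e-06) and levels of 53.9, 62.9 and 90.0 FPKM in control against 24.5, 34.3 and 61.4 FPKM in 6AN. ECT2, the exchange factor that activates RhoA for cytokinesis, and CKAP2, a microtubule-associated protein, had ratios of -0.67 and -0.45 and were each lower at 11 of 12 time points.

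FOXM1, the transcription factor that activates many of these genes, was itself lower in 6AN at all 12 time points. Its control levels were 62.9, 66.0 and 92.2 FPKM and its 6AN levels 28.4, 41.5 and 83.1 FPKM. The log2 ratio of FOXM1 was -0.15 at 0 hr, the second smallest difference at that time after CDC25B, and -1.12 at 44 hr. FOXM1 also had the smallest trend p in control, with a slope of -0.17 ± 0.06 (SE) that missed the threshold (limma adjusted p = 0.0968). MKI67 (Ki-67), the proliferation antigen that coats mitotic chromosomes, lay at 24.4, 27.7 and 38.8 FPKM in control and 7.57, 11.9 and 28.2 FPKM in 6AN, with a slope in 6AN of -0.95 ± 0.06 (SE; limma adjusted p = 5.87e-06). TOP2A, the topoisomerase that untangles sister chromatids, lay at 93.1, 116 and 166 FPKM in control and 44.1, 58.5 and 115 FPKM in 6AN.

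Levels of the genes were correlated within each condition, and pairs of other loci were not computed for comparison. Across 703 pairs, the correlation of log2(FPKM + 1) over 12 time points had a median of 0.807 in control and 0.934 in 6AN, a description of libraries that every pair shares. With a linear trend removed from each gene the medians were 0.844 and 0.511. Single pairs then ran from 0.114 to 0.988 in control and from -0.543 to 0.948 in 6AN. Removing the line raised the median in control and lowered it in 6AN. CDC25C followed the mean of the other 37 genes least in 6AN after that removal, with a correlation of -0.168.

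Dexamethasone synchronises the circadian clock, and a 24 hr rhythm was therefore tested with a cosine beside a linear term. limma called 0 of 38 genes rhythmic in control, against 0.00715% of all loci, which is 1 locus, and 0 of 38 in 6AN, against 0% of all loci. At an unadjusted p under 0.05 there were 4 genes in control, against 6.79% of all loci, and 5 in 6AN, against 7.82%. In control the smallest p-values were those of PTTG1 (0.0192), CENPF (0.0325) and PRC1 (0.0370), each with a limma adjusted p of 0.723. In 6AN they were those of CCNB2 (0.0221), PLK1 (0.0288) and UBE2C (0.0332), with limma adjusted p-values of 0.545, 0.575 and 0.597. The largest fitted amplitudes were 0.291 log2 units in control, in KIF20A, and 0.234 in 6AN, in PLK1.

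Other cell cycle genes were grouped in lists for comparison. A second list of 38 mitotic genes had a median log2 ratio of -0.84, with 27 of 38 lower at all 12 time points, and 37 of 38 fell in 6AN against 1 in control. ZWINT and SPC25, both of the kinetochore, were its lowest at -1.56 and -1.26. CENPN and CKAP5 were its highest at -0.12 and -0.19. Condensin and cohesin genes had a median of -0.39, and 10 of 13 fell in 6AN. The condensin genes NCAPG and SMC4 were the lowest at -1.33 and -0.90, and the cohesin genes STAG2 and STAG1 the highest at 0.13 and -0.31.

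DNA replication genes, which peak earlier in the cycle, were already well below control in the first 24 hr. Their median log2 ratio was -0.91, 32 of 34 were lower at all 12 time points, and in 30 of 34 the ranges of the conditions were separate. Their first and second 24 hr medians were -0.76 and -1.14, beside -0.42 and -1.23 for the 38 mitotic genes, and 26 of 34 fell in 6AN. RRM2, the small subunit of ribonucleotide reductase, was the lowest at -1.77, and GINS2, of the replicative helicase, was at -1.51. CDT1 and RFC1 were the highest at -0.10 and -0.19.

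The APC/C core subunits, which cells keep through the cycle, had a median of -0.13, with 3 of 15 lower at all 12 time points, and 4 fell and 2 rose in 6AN. ANAPC15 and CDC27 were the lowest at -0.78 and -0.34, and ANAPC16 and ANAPC2 the highest at 0.44 and 0.14. MuvB, DREAM, E2F and RB factors had a median of -0.18, and 6 of 20 fell and 1 rose in 6AN. MYBL2 (B-MYB) was the lowest at -1.33 and E2F2 was at -1.05. E2F5 and RBL2 (p130) were the highest at 0.29 and 0.25, and RBL2 was the 1 that rose. Of 16 measured G1 cyclins, their kinases and CDK inhibitors, 4 fell and 3 rose in 6AN, with a median ratio of -0.37. CCNE2 and CDKN2C were the lowest at -1.29 and -0.92, and the D-type cyclins CCND3 and CCND2 the highest at 0.72 and 0.39. CDKN1A (p21), named after its values had been seen, rose over time in 6AN with a slope of 0.44 ± 0.04 (SE; limma adjusted p = 4.08e-05) and a mean log2 ratio of 0.23. No test compared these lists with one another.

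**Figure D5:**
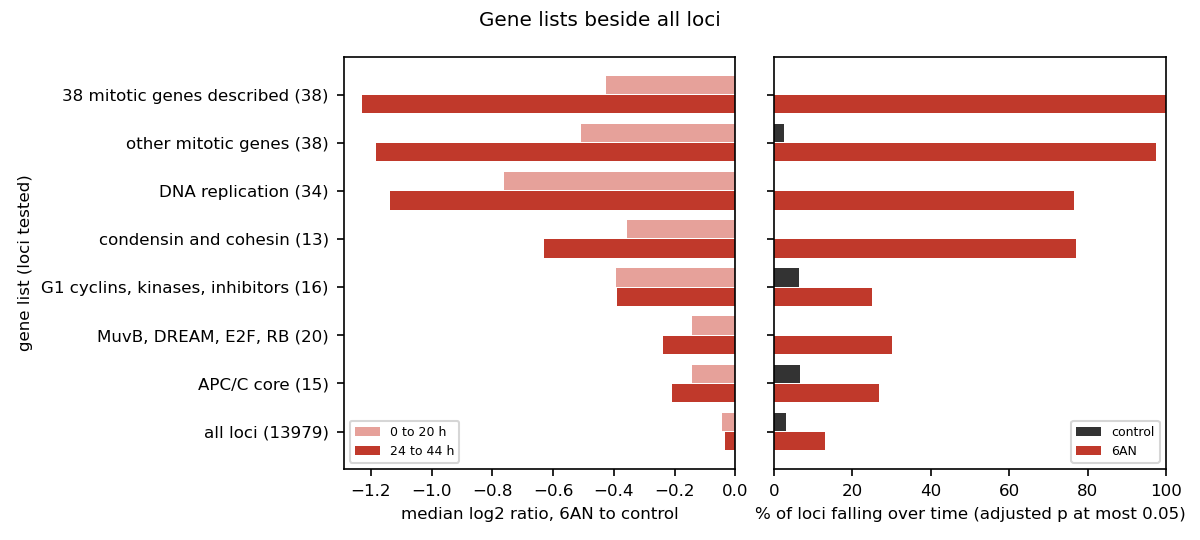
Median log2 ratio of 6AN to control over 0 to 20 hr and 24 to 44 hr (left), and the percentage of loci that fell over time in control and in 6AN (right), for the 38 mitotic genes, 6 other lists and all 13979 loci (y axis, loci tested in brackets). The mitotic genes pass from -0.42 to -1.23, and 38 of 38 fell in 6AN against 13.1% of all loci.

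BMAL1 and CLOCK peaks were counted within 5 kb of each locus. In control a BMAL1 peak was present at 7 of 38 genes, against 14.5% of all loci, and in 6AN at 3, against 19.7%. A CLOCK peak was present at 0 in control, against 2.16% of all loci, and at 1 in 6AN, against 9.11%. AURKA alone had a BMAL1 peak in both conditions, in an interval over its start (chr20:56392269-56392510, hg38). The peak at BUB1 (chr2:110678026-110678226) covered the start site printed above, and that at NUF2 (chr1:163321726-163321926) ended 7 bases before the start of the locus. The peaks at NDC80 (chr18:2571424-2571624) and ANLN (chr7:36389716-36389916) also covered the RefSeq start, and only that of ANLN had an E-box in the promoter window. Further BMAL1 peaks in control were at PTTG1 and KIF23 2680 and 4447 bases outside it. In 6AN the others were at BIRC5, over its start (chr17:78214176-78214376), and 2681 bases outside CDC25C. CDC25B had the only CLOCK peaks, both in 6AN, with 1 inside the locus (chr20:3795734-3795934) and 1 2038 bases outside it. The peak inside the locus covered a RefSeq start of CDC25B other than the one printed above. Of 147 shared BMAL1/CLOCK sites in control and 439 in 6AN, 0 were assigned to any of the 38 genes. The share of all loci with such a site was not counted, and with so few sites this count says nothing particular about the 38 genes.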

How the data were processed

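Expression was taken from the FPKM tables the authors deposited, 1 for control and 1 for 6AN, each normalised on its own by the authors with TopHat, Bowtie and Cufflinks on hg38 from single-end reads; versions and strand setting are not given in the sources used here. FPKM hold no read counts, so absolute depth is unknown, and relative depth was read from the spacing of low values. Peaks were those the authors called per library with HOMER and merged within 200 bp; the deposited HOMER score of each interval and the signal columns of the shared sites entered no comparison.

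Loci with a mean of at least 1 FPKM over 24 libraries were kept, and values were analysed as log2(FPKM + 1), which understates changes of low genes. Trends and 24 hr rhythms (cosine and sine with a linear term) were fitted per condition with limma 3.58.1 (R 4.3.3; eBayes with trend), with Benjamini-Hochberg adjustment over 13979 loci and a threshold of 0.05. The fits were checked on simulated data. Conditions were compared without a test: a locus was lower if it was so at all 12 time points. FPKM are scaled to the size of each library, so values are relative to the other RNA in it. Motif shares and peak counts were described only.

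The genes and lists were chosen with earlier results of these data known. Named with values were 12 fixed genes (CCNB1, CDK1, PLK1, AURKA, CDC20, CENPF, TOP2A, MKI67, FOXM1, PTTG1, CCNA2, BUB3), the 3 highest and 3 lowest by mean ratio, the 3 smallest trend and rhythm p-values per condition, genes with a peak, and the 2 highest and 2 lowest of each other list. Alternatives were a pseudocount of 0.1, filters of 0.1 FPKM or none, rescaled libraries, leaving out each time point, either 24 hr alone, a comparison of the second 24 hr with the first, no linear term, and peak windows of 0 or 20 kb.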

Additional observations from a re-analysis of the deposited data

How the results depend on the processing

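Libraries were matched by time point in the ratios, and the labels carry no replicate numbers. No paired test was run, because the tables of the conditions were normalised separately and hold 1 library per time point. Leaving out each time point in turn kept all 38 genes falling in 6AN and 0 in control, gave 27 to 32 genes lower in 6AN at every time point left, and a median ratio of -0.884 to -0.774. With libraries rescaled, 25 genes were lower at all 12 time points (16.7% of all loci), the median was -0.78, and the median over all loci moved from -0.04 to 0.01. Comparing the second 24 hr with the first, 37 genes fell in 6AN, CDK1 being the exception (-0.40, limma adjusted p = 0.0547). Chosen after seeing the data, slopes within the first 24 hr alone called 1 gene falling in 6AN, and within the second 24 hr alone 0. In that second part TTK (0.06), NEK2 (0.093), BUB3 (0.046) and NDC80 (0.082) had positive slopes. Only 6 time points enter each of these fits, and shares of all loci are not given beside their counts. Peak counts moved with the window: unwidened loci gave 4 genes with a BMAL1 peak in control (10.5%, against 10.4% of all loci), and windows of 20 kb gave 6 genes for BMAL1 under 6AN (15.8%, against 24.9%), with 1 for CLOCK under DMSO (2.63%, against 3.02%) and 2 for CLOCK under 6AN (5.26%, against 12.4%). No member was called rhythmic under any setting tried, all with a period of 24 hr, in a fit that in its main setting called 1 locus in control and 0 in 6AN.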
